A study of Mus musculus with 24 samples.

Results

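The MacLowKit+Sca1+ fraction of a mouse acute myeloid leukaemia is described here at the level of RNA, as 4 of the 24 libraries of the study. It was set against the 15 libraries of the other sorted fractions, 5 of MacHigh, 5 of MacLowKit-Sca1- and 5 of MacLowKit+Sca1- cells, while 5 libraries of unsorted cells were kept out of the comparison. MacLow is dropped from the names below, although Kit+Sca1+, Kit-Sca1- and Kit+Sca1- cells were all gated MacLow. Every group carried the same genotype, NRASG12V/Mll-AF9, in (FVB/n X C57/BL/6J) F1 mice, so that no group stands for normal blood cells. Per the series' design text the cells were primary leukaemia cells from spleens, sorted and sequenced from total RNA. The labels give no age, no promoter that drives either oncogene and no number of animals. They also do not say that replicates came from separate mice, so each p-value measures the spread between these libraries, which may be technical.

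NRASG12V is a form of the small GTPase NRAS that stays bound to GTP and signals without a stimulus. Mll-AF9 fuses a histone methyltransferase to a partner from the transcription elongation machinery and keeps Hoxa genes and Meis1 switched on in myeloid precursors. Kit is the receptor for stem cell factor, and Sca-1, the product of Ly6a, is a glycolipid-anchored surface protein. Among normal mouse marrow cells without lineage markers, the 2 proteins together mark stem cells and multipotent progenitors. Mac-1 is the integrin of mature myeloid cells whose alpha chain is encoded by Itgam. Sca-1 is also found on other blood cells, including lymphocytes and dendritic cells, and the spleen holds red pulp macrophages and dendritic cells, so the lists below include markers of those cells. All lists were chosen with earlier results of these data known, so the counts on them are a description and no independent test.

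Expression is given as FPKM, fragments scaled to transcript length and to the mapped fragments of the library, which can be set side by side between genes because it is scaled to length. Differences are on the log2(FPKM + 1) scale and are the Kit+Sca1+ mean minus the mean of the 3 other group means. The added 1 shrinks the difference of genes near or below 1 FPKM. Of 23361 gene rows, 11464 reached 1 FPKM in at least 4 of the 19 sorted libraries. Of these, 37 were listed at 0.001 in a whole group while another group had 5 FPKM or more in each library, 35 of them in Kit+Sca1- and 2 in MacHigh, and these rows were treated as missing. The remaining 11427 genes were tested with limma, and a gene is called at a Benjamini-Hochberg adjusted p below 0.05 over all of them. The FPKM of a library summed to between 469807 and 603735 in Kit+Sca1+ and between 445970 and 644381 in the other groups. Between 10959 and 11124 rows reached 1 FPKM in Kit+Sca1+ libraries, against 10763 to 10874 in MacHigh, 10590 to 10722 in Kit-Sca1- and 10177 to 10524 in Kit+Sca1- libraries, so that Kit+Sca1+ did not overlap with the others. Replicate 5 of Kit+Sca1- stood apart from its group in MHC class II, dendritic cell and T cell genes, and the counts of these lists were repeated without it, as were those of the macrophage, stem cell and neutrophil lists. Numbers of reads were not given, so the counting error of a value is unknown. On the principal components of the tested genes, the second, with 20.7% of the variance, placed the Kit+Sca1+ libraries between 52.1 and 57.7 and the other 15 between -33.1 and 8.94.

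Kit and Ly6a followed the gate, while Itgam was also lower than in the other groups gated MacLow. Kit had 26.8, 32.0, 43.6 and 34.8 FPKM in the Kit+Sca1+ libraries, against 7.17, 5.23, 6.03, 5.29 and 5.22 in MacHigh, 0.643, 0.572, 0.744, 0.487 and 0.895 in Kit-Sca1- and 54.1, 38.7, 36.8, 37.6 and 31.7 in Kit+Sca1- libraries. The Kit+Sca1+ and Kit+Sca1- values overlapped, with a log2 difference of -0.21 between these groups (limma adjusted p = 0.246), while every Kit+Sca1+ library lay above every MacHigh and Kit-Sca1- library. Ly6a had 7.20, 9.75, 8.07 and 5.64 FPKM in the Kit+Sca1+ libraries, against 1.87, 3.46, 1.55, 2.77 and 2.11 in MacHigh, 0.873, 1.74, 1.52, 0.499 and 0.466 in Kit-Sca1- and 1.09, 1.29, 0.254, 1.29 and 0.66 in Kit+Sca1- libraries. The 4 Kit+Sca1+ libraries were the 4 highest of the 19. Itgam had 39.2, 52.6, 98.0 and 58.1 FPKM in the Kit+Sca1+ libraries, against 631, 693, 582, 659.5 and 600.0 in MacHigh, 203, 296, 382, 158 and 295 in Kit-Sca1- and 199, 396, 137, 182 and 422 in Kit+Sca1- libraries, and the Kit+Sca1+ libraries were the 4 lowest of the 19. In exact two-sided permutation tests over the 3876 ways of choosing 4 of 19 libraries, adjusted over the 3 genes, the difference was 2.18 for Kit (p = 0.0454), 1.90 for Ly6a (p = 0.000387) and -2.51 for Itgam (p = 0.000387). Since the cells were sorted on Kit and Sca-1, the tests of Kit and Ly6a describe the gates. The Itgam test pools MacHigh libraries with groups gated MacLow, so it too describes a gate in part. The Kit test pools Kit+Sca1- libraries with groups low in Kit, so it does not set Kit+Sca1+ apart from each group. The unadjusted p of Ly6a and Itgam, 0.000258, is the smallest that this number of arrangements allows.

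**Figure D1:**
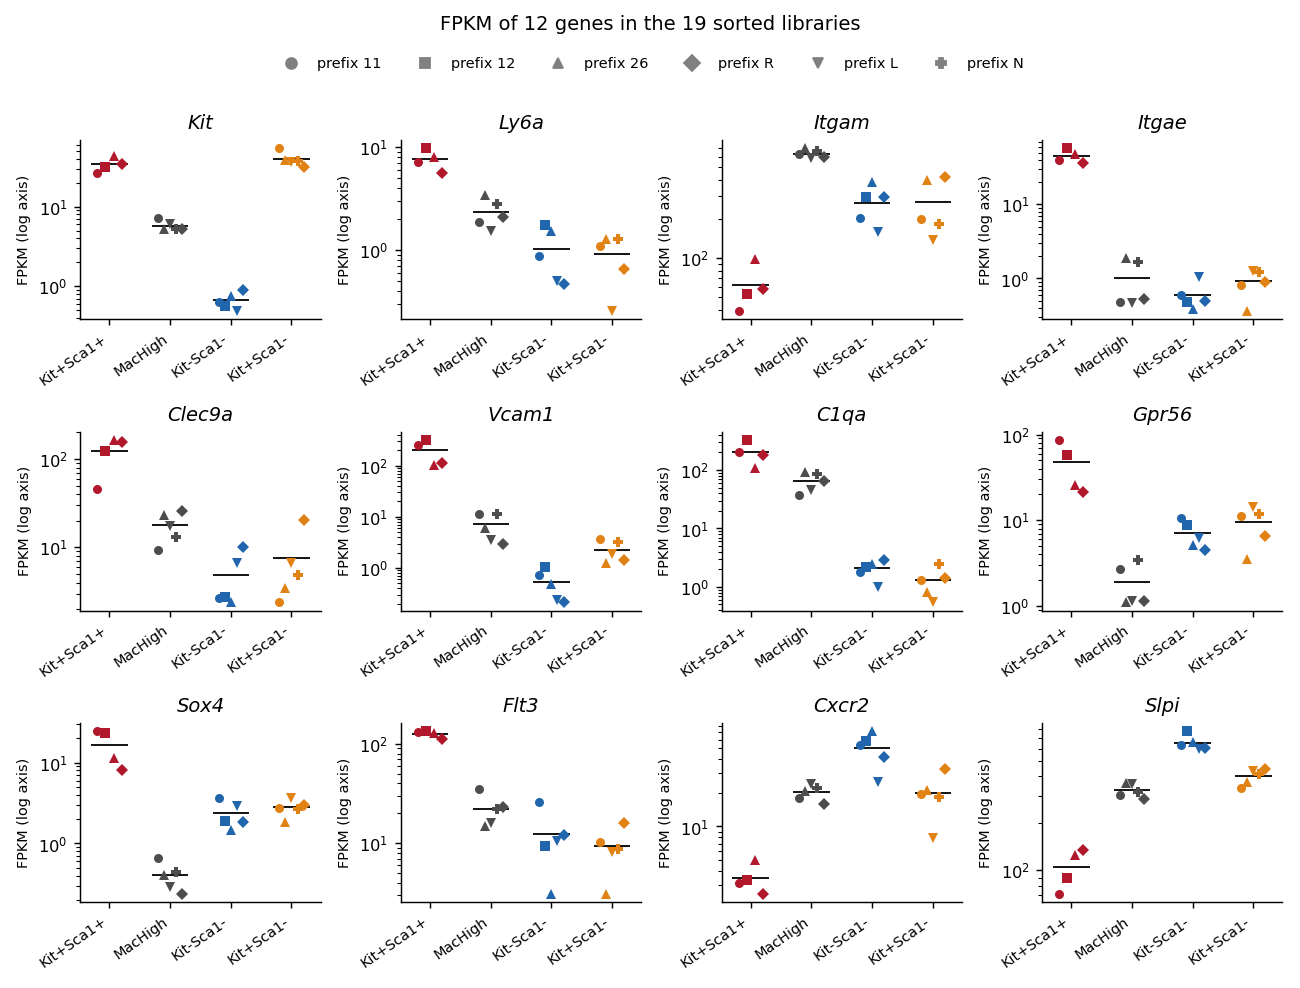
FPKM of 12 genes (log axis) in the 19 sorted libraries, 1 point a library, with the group mean as a line and the marker shape giving the prefix of the sample name. The 4 Kit+Sca1+ libraries lie above the 15 others for Ly6a, Itgae, Clec9a, Vcam1, C1qa, Gpr56, Sox4 and Flt3 and below them for Itgam, Cxcr2 and Slpi, while for Kit they overlap with Kit+Sca1-.

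Of the 11427 genes, 2337 (20.5%) were called higher and 2338 (20.5%) lower in Kit+Sca1+ cells. Because the comparison is with a mean of groups, 543 of the genes called higher had a lower mean in Kit+Sca1+ than in at least 1 group, and 544 of those called lower had a higher mean than in at least 1 group. A stricter description asks that a called gene lie outside all 15 other libraries: 570 genes (4.99%) lay above and 366 (3.2%) below. Called in the same direction against each of the 3 groups separately were 812 genes higher (7.11%) and 622 lower (5.44%). The genes above all other libraries were mostly nearest to MacHigh cells: for 393 of the 570 (68.9%) the highest of the other group means was that of MacHigh, for 94 (16.5%) that of Kit+Sca1- and for 83 (14.6%) that of Kit-Sca1-. Their median log2 difference to that nearest group was 1.08, and 311 differed by 1 or more, 87 by 2 or more and 17 by 3 or more. The 366 genes below all other libraries had no such leaning, with 111 nearest to MacHigh, 126 to Kit-Sca1- and 129 to Kit+Sca1- cells. They also lay closer to the nearest group, at a median of -0.53, with 73 lower by 1 or more and 10 by 2 or more. Counted the same way without a test, Kit+Sca1+ had 570 genes above and 367 below all libraries of the other groups, MacHigh 823 and 605, Kit-Sca1- 168 and 128, and Kit+Sca1- 892 and 829. The labels give no number of cells of any type, and in bulk RNA fewer cells of a type and less RNA per cell cannot be told apart.

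**Figure D2:**
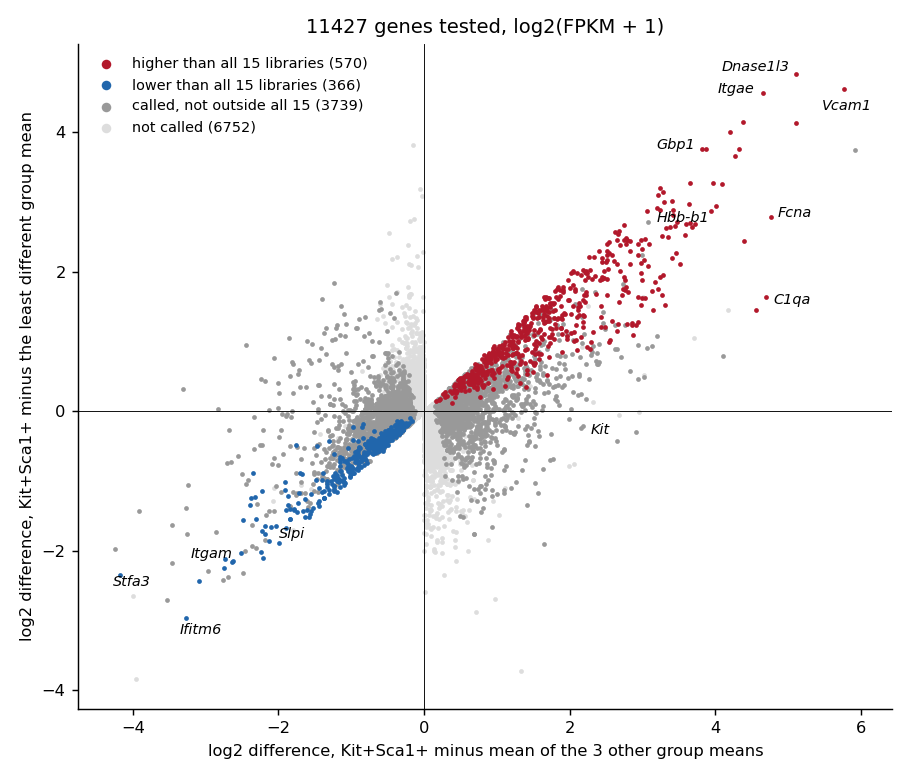
Each point is 1 of the 11427 tested genes, with the log2 difference of Kit+Sca1+ to the mean of the 3 other group means on the x axis and the difference to the nearest other group on the y axis (the group with the highest mean for genes to the right, the lowest for genes to the left). The 570 genes above all 15 other libraries are red, the 366 below them blue, the other 3739 called genes grey and the 6752 genes not called light, and the red genes reach farther from the nearest group than the blue.

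Genes known from dendritic cells and macrophages were among those highest in Kit+Sca1+ cells. The 12 largest differences were those of the dendritic cell genes Itgae, Cadm1 and Cd207, the macrophage genes Vcam1, Cd5l, Fcna, C1qa, C1qc, Spic and Itgad, the secreted nuclease gene Dnase1l3 and the chemokine gene Cxcl9. A further 6 genes were chosen for their distance from the nearest group. They are Gbp1, an interferon-induced GTPase, Cd8a, the alpha chain of the CD8 co-receptor, Anpep, the aminopeptidase CD13, Ccr3, the eotaxin receptor, Fndc5, a fibronectin type III protein, and Slc45a3, a solute carrier. These genes other than Anpep were below 2 FPKM in each of the 15 other libraries. Ccr3 had 10.1, 32.8, 14.2 and 10.3 FPKM in Kit+Sca1+ libraries and at most 1.12 elsewhere. Fndc5 had 6.38, 9.94, 15.1 and 11.2 FPKM, against at most 0.652, and Slc45a3 10.8, 18.4, 5.70 and 9.17 FPKM, against at most 0.435. Anpep was abundant, with 65.0, 123, 136 and 111 FPKM in Kit+Sca1+ libraries, against 6.98 to 15.2 in MacHigh, 1.62 to 5.69 in Kit-Sca1- and 3.10 to 13.7 in Kit+Sca1- libraries (log2 difference 3.97 ± 0.30 SE, limma adjusted p = 8.46e-09). Gbp1 had 12.2, 15.9, 25.3 and 18.1 FPKM against a highest value of 0.598 in the other libraries, and its reads cannot be told apart with certainty from those of its near-identical family members. Of the 570 genes above all other libraries, 39 (6.84%) were on one of the 13 lists of cell-type markers and 25 (4.39%) on one of the 16 pathway lists. In all, 54 (9.47%) were on any list. The share of all tested genes on these lists was not counted, so these shares do not show an excess of listed genes.

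**Figure D3:**
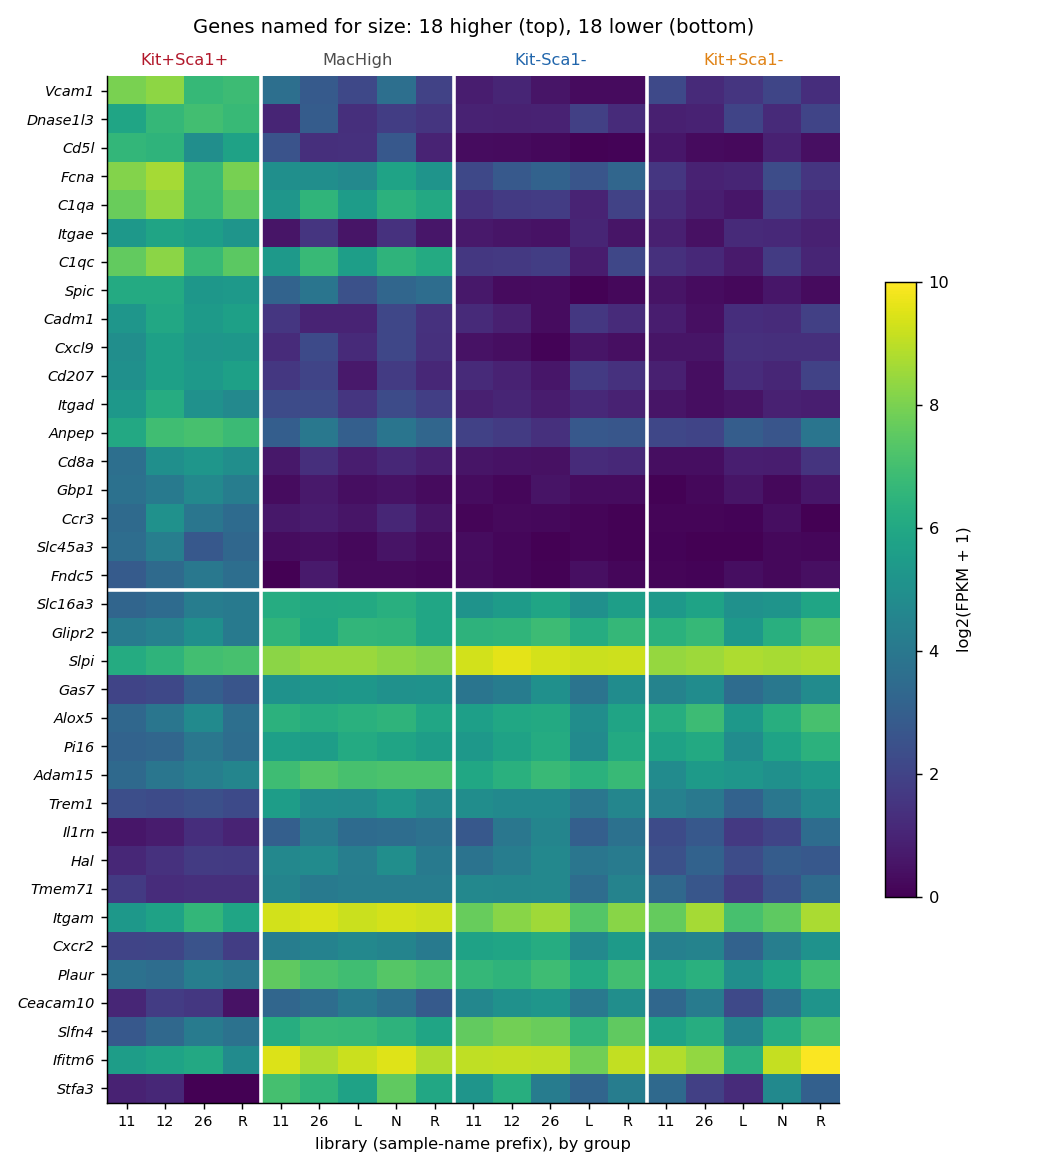
log2(FPKM + 1) of the 18 genes named for being higher (upper rows) and the 18 named for being lower (lower rows) in Kit+Sca1+ cells, in the 19 sorted libraries, with Kit+Sca1+ at the left. The upper rows are brightest in the 4 Kit+Sca1+ columns, with a weaker signal in MacHigh columns for C1qa, C1qc and Fcna, and the lower rows are darkest there.

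Conventional type 1 dendritic cells take up dead cells and present their antigens to CD8 T cells. They depend on the factors Batf3 and Irf8 and carry the receptors Xcr1 and Clec9a and, in tissues, the integrin CD103. Of the 16 tested markers of these cells, 14 were called higher in Kit+Sca1+ cells, none lower, and all 14 lay above each of the 15 other libraries, against 20.5% and 4.99% of all genes. The median log2 difference of the 16 was 3.37, against -0.02 over all tested genes. Without replicate 5 of Kit+Sca1- both counts were again 14. The exceptions, Ly75 and Cd24a, are also expressed by other blood cells and differed by 0.50 (limma adjusted p = 0.184) and 0.07 (limma adjusted p = 0.706).

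Among the surface receptors, Itgae, which encodes the CD103 chain and lies at chr11:73090505-73147449 of mm10, had 39.5, 56.8, 47.2 and 36.1 FPKM in the Kit+Sca1+ libraries, against 0.48, 1.88, 0.463, 1.65 and 0.532 in MacHigh, 0.594, 0.482, 0.392, 1.03 and 0.501 in Kit-Sca1- and 0.816, 0.364, 1.27, 1.24 and 0.911 in Kit+Sca1- libraries. The lowest Kit+Sca1+ library stood above the highest of the others, and the log2 difference was 4.66 ± 0.18 SE (limma adjusted p = 3.33e-12). Clec9a, the receptor for actin filaments of dead cells, had 46.1, 122, 165 and 154 FPKM in the Kit+Sca1+ libraries, against 9.30, 23.3, 17.4, 13.1 and 25.7 in MacHigh, 2.67, 2.73, 2.40, 6.73 and 10.1 in Kit-Sca1- and 2.38, 3.48, 6.61, 4.85 and 20.7 in Kit+Sca1- libraries. The highest other library was one of MacHigh and lay below each of the 4, with a log2 difference of 3.69 ± 0.42 SE to the mean of groups and 2.64 to MacHigh. Xcr1, the receptor for the chemokine XCL1, had 53.6, 104, 156 and 104 FPKM in Kit+Sca1+ libraries, against 7.54 to 17.1 in MacHigh, 1.74 to 4.73 in Kit-Sca1- and 1.70 to 9.74 in Kit+Sca1- libraries. Cadm1, an adhesion molecule and ligand of a receptor on cytotoxic lymphocytes, had 36.8, 62.3, 42.6 and 49.9 FPKM against at most 3.39 elsewhere. Cd207, the lectin langerin, had 31.2, 51.0, 41.1 and 51.1 FPKM against at most 3.20. Replicate 1 was the lowest Kit+Sca1+ library for Xcr1, Cadm1, Cd207 and Clec9a. Tlr3, which senses double-stranded RNA, and Naaa, a lysosomal acid amidase, differed by 3.52 and 3.22.

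The promoter of Cd8a is shown because Cd8a was near or below 1 FPKM in each other group, and because its window holds the composite site to which the factors PU.1 and IRF8 can bind together. Cd8a (chr6:71373427-71379171) had 11.4, 30.6, 37.6 and 29.8 FPKM in the Kit+Sca1+ libraries, against 0.582, 1.56, 0.719, 1.16 and 0.809 in MacHigh, 0.473, 0.392, 0.382, 1.32 and 1.25 in Kit-Sca1- and 0.299, 0.291, 0.774, 0.734 and 1.83 in Kit+Sca1- libraries. None of the other 15 libraries came near the lowest Kit+Sca1+ value, and the log2 difference was 3.87 ± 0.25 SE (limma adjusted p = 7.86e-10). Cd8a is on the T cell list as well. The sequence is that of RefSeq, GRCm38.p6, chr6:71373177-71373476, plus strand, from 250 bases before to 50 bases after the start, with matches to the composite (GGAA, any 2 bases, then GAAA) on either strand in capitals.
Cd8a promoter: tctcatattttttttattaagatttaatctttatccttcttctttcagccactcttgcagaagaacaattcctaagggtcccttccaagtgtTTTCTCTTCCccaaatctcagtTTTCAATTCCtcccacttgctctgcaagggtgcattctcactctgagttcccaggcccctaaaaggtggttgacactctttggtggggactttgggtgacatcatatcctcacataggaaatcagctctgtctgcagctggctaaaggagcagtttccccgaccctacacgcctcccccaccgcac
It holds 2 matches, both on the minus strand. At least 1 match was found for 20 of the 449 genes above all other libraries that had a promoter in the table (4.45%), for 15 of the 302 below (4.97%), for 2.95% of the tested genes and for 3.16% of all genes with a promoter. A match is a description of these letters and not a binding site.

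Transcription factors of this dendritic lineage were high as well. Irf8, needed for monocyte and type 1 dendritic cell development, had 443, 664, 753 and 734 FPKM in Kit+Sca1+ libraries, against 173 to 275 in MacHigh, 177 to 283 in Kit-Sca1- and 34.2 to 163 in Kit+Sca1- libraries. The Kit+Sca1+ values lay above all others, with a log2 difference of 2.15 ± 0.27 SE (limma adjusted p = 4.39e-06). Batf3 had 50.8, 84.7, 87.2 and 95.5 FPKM, against 20.6 to 41.9 in MacHigh, 2.08 to 12.6 in Kit-Sca1- and 2.91 to 21.5 in Kit+Sca1- libraries, and differed by 2.86. Id2, an inhibitor of E proteins that dendritic and innate lymphoid cells need, had 519, 609, 483 and 629.7 FPKM against at most 466 elsewhere. Zbtb46, a factor of conventional dendritic cells, differed by 2.38 from the mean of groups, but its values of 25.6, 44.1, 59.7 and 51.0 FPKM overlapped with the 19.4 to 37.8 of MacHigh libraries. In the list of 28 myeloid and dendritic transcription factors, 12 were called higher and 8 lower, against 20.5% of all genes in each direction. Among them 5 lay above and 1 below all other libraries, against 4.99% and 3.2% of all genes, and the median was 0.03. The 8 called lower were Cebpb, Klf4, Irf4, Cebpd, Cebpa, Nfil3, Zeb2 and Sfpi1, which encodes PU.1. Cebpb, an activator of emergency granulopoiesis, had 13.9, 10.9, 19.7 and 17.3 FPKM in Kit+Sca1+ libraries, against 70.8 to 102 in MacHigh, 36.5 to 79.5 in Kit-Sca1- and 22.5 to 54.3 in Kit+Sca1- libraries, and was the 1 member below all of them. Klf4 had 5.71, 5.27, 3.40 and 7.42 FPKM, which overlapped with the 1.41 to 5.59 of Kit+Sca1- libraries and lay below the 39.4 to 67.2 of MacHigh libraries.

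In the list of general dendritic cell markers, 12 of 15 were called higher and 1 lower, against 20.5% of all genes in each direction. Above all other libraries lay 5 of them, against 4.99% of all genes, and the median was 2.23. Btla, an inhibitory receptor, was the most abundant of them with 201, 331, 406 and 389 FPKM in Kit+Sca1+ libraries, against 38.8 to 55.3 in MacHigh, 13.7 to 30.0 in Kit-Sca1- and 6.80 to 38.7 in Kit+Sca1- libraries, which did not overlap. Dnase1l3 (chr14:7965187-7994760), a nuclease secreted by dendritic cells and macrophages, had 57.2, 101, 126 and 106 FPKM against at most 6.48 elsewhere (log2 difference 5.12 ± 0.29 SE, limma adjusted p = 2e-10). Cd209a, a lectin of type 2 and monocyte-derived dendritic cells, went the other way, with 0.554, 1.20, 3.25 and 0.989 FPKM in Kit+Sca1+ and 35.6 to 239 FPKM in MacHigh libraries. For Itgax, the CD11c chain, the 55.6, 110.4, 138 and 129 FPKM of Kit+Sca1+ libraries overlapped with the 60.6 to 124 FPKM of MacHigh libraries. Among markers of plasmacytoid dendritic cells, 9 of 14 were called higher and 1 lower, with 3 above all other libraries and a median of 0.74. Without replicate 5 of Kit+Sca1- the counts called higher, called lower and above all others in the general list were again 12, 1 and 5. Siglech, the defining member of the plasmacytoid list, averaged 0.652 FPKM in Kit+Sca1+ libraries and did not reach the filter. The summed FPKM was 761, 1117, 1360 and 1186 for the general list in Kit+Sca1+ libraries, against 442 to 875 in MacHigh, 92.7 to 170 in Kit-Sca1- and 84.6 to 229 in Kit+Sca1- libraries. For the plasmacytoid list it was 314, 404, 314 and 275, against 201 to 305 in MacHigh, 174 to 215 in Kit-Sca1- and 98.0 to 142 in Kit+Sca1- libraries.

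The class II genes, which present antigens to CD4 T cells, were high in Kit+Sca1+ cells but not set apart from MacHigh cells. Of 15 tested genes 14 were called higher, against 20.5% of all genes, and none lower, with a median of 2.62. Yet 1 of them lay above all other libraries, against 4.99% of all genes. Without replicate 5 of Kit+Sca1- these 3 counts were again 14, 0 and 1. That gene was Cd86, a co-stimulatory ligand of CD28, with 49.4, 78.5, 89.6 and 84.2 FPKM in the Kit+Sca1+ libraries, against 15.7, 21.6, 14.9, 20.2 and 21.9 in MacHigh, 5.17, 3.27, 4.19, 5.29 and 8.63 in Kit-Sca1- and 1.76, 1.18, 3.67, 3.43 and 8.89 in Kit+Sca1- libraries. Its log2 difference was 3.24 ± 0.28 SE (limma adjusted p = 3.22e-08). H2-Ab1, a class II beta chain, had 2487, 4474, 4857 and 4846 FPKM in Kit+Sca1+ libraries, against 1372 to 2907 in MacHigh, 100.3 to 375 in Kit-Sca1- and 124 to 741 in Kit+Sca1- libraries. Ciita, the activator of class II transcription, had 66.1, 111, 165 and 108 FPKM, against 39.6 to 87.9 in MacHigh, 3.00 to 9.91 in Kit-Sca1- and 4.54 to 18.5 in Kit+Sca1- libraries. Replicate 1 gave the lowest Kit+Sca1+ value of both genes and lay within the MacHigh range. Summed over the 15 genes, the FPKM was 14340, 23460, 25940 and 26670 in Kit+Sca1+ libraries, against 9308 to 19730 in MacHigh, 727 to 2553 in Kit-Sca1- and 709.5 to 4543 in Kit+Sca1- libraries.

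Red pulp macrophages clear old red cells and recycle their iron, and depend on the factor Spic. Of 21 tested markers, 17 were called higher in Kit+Sca1+ cells, 1 lower, and 10 lay above all 15 other libraries, against 20.5% of all genes called in each direction and 4.99% above all others. The median log2 difference was 2.13. Without replicate 5 of Kit+Sca1- the counts were 18, 1 and 10. Vcam1, an adhesion ligand for integrin alpha 4 beta 1 that lies at chr3:116110020-116129688, had 255, 319, 104 and 115 FPKM in the Kit+Sca1+ libraries, against 11.5, 6.16, 3.47, 11.6 and 2.96 in MacHigh, 0.734, 1.03, 0.494, 0.239 and 0.213 in Kit-Sca1- and 3.63, 1.27, 1.88, 3.21 and 1.46 in Kit+Sca1- libraries. It had the largest difference of the 570 genes above all other libraries, 5.77 ± 0.32 SE (limma adjusted p = 1.58e-10). The 2 libraries with the lower values were replicates 3 and 4. Spic (chr10:88675269-88683023) had 67.6, 67.5, 37.9 and 41.6 FPKM in the Kit+Sca1+ libraries, against 7.99, 13.6, 4.62, 8.93 and 10.9 in MacHigh, 0.555, 0.236, 0.246, 0.0318 and 0.163 in Kit-Sca1- and 0.44, 0.245, 0.149, 0.539 and 0.21 in Kit+Sca1- libraries. MacHigh libraries ranked next and lay below every Kit+Sca1+ library, with a log2 difference of 2.44 between the 2 groups.

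The complement genes C1qa, C1qb and C1qc encode the chains of C1q, which binds immune complexes and dying cells. C1qa had 206, 329, 109.9 and 184 FPKM in the Kit+Sca1+ libraries, against 37.6, 91.9, 44.8, 84.8 and 65.2 in MacHigh, 1.79, 2.23, 2.43, 1.01 and 2.91 in Kit-Sca1- and 1.33, 0.814, 0.542, 2.47 and 1.43 in Kit+Sca1- libraries, and did not overlap between Kit+Sca1+ and MacHigh libraries (log2 difference to the mean of groups 4.70 ± 0.26 SE). C1qc had 194, 304, 106 and 179 FPKM in Kit+Sca1+ libraries, against at most 104 elsewhere. C1qb had 200.4, 295, 96.9 and 204 FPKM in Kit+Sca1+ libraries and 69.5, 157, 74.9, 142 and 117 FPKM in MacHigh libraries, which overlapped, with a difference of 0.79 between these groups (limma adjusted p = 0.0986). Among secreted proteins, Cd5l, a macrophage survival factor, had 97.5, 89.4, 29.7 and 52.6 FPKM against at most 5.79 elsewhere. Fcna, the lectin ficolin A, had 279.9, 406, 112 and 249 FPKM against at most 54.4, and is overlapped by an antisense gene. Itgad, the integrin alpha D chain, had 39.0, 71.5, 32.2 and 24.9 FPKM against at most 3.94, and its locus overlaps Cox6a2. Slc40a1, the iron exporter ferroportin, had 114, 205, 114 and 146 FPKM, against 24.9 to 45.6 in MacHigh, 9.05 to 29.8 in Kit-Sca1- and 52.6 to 87.3 in Kit+Sca1- libraries, and was again above all others. Other genes of this list had higher means in MacHigh cells. Hmox1, the haem-degrading enzyme, had 236, 299, 152 and 217 FPKM in Kit+Sca1+ libraries, against 264 to 624 in MacHigh libraries, and without the Kit+Sca1- group it was no longer called (log2 difference 0.46, limma adjusted p = 0.113). Emr1, the F4/80 antigen, had 24.1, 47.1, 23.5 and 34.8 FPKM in Kit+Sca1+ libraries, against 85.0 to 169 in MacHigh libraries.

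The 2 marker lists did not vary together among the Kit+Sca1+ libraries. The summed FPKM of the type 1 dendritic cell markers was 2482, 4112, 4704 and 4325 in replicates 1 to 4, against 978 to 1444 in MacHigh, 621 to 895 in Kit-Sca1- and 596 to 1255 in Kit+Sca1- libraries. That of the red pulp macrophage markers was 2299, 3403, 1522 and 2165, against 1657 to 2548 in MacHigh, 428 to 737 in Kit-Sca1- and 260.2 to 400.5 in Kit+Sca1- libraries. Replicate 1 was lowest for the dendritic markers and replicate 3 for the macrophage markers, and for the second sum the Kit+Sca1+ and MacHigh ranges overlapped. In these data RNA of leukaemia cells and RNA of other spleen cells within the gate cannot be told apart, and the part of such cells in the differences of other genes was not tested.

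**Figure D4:**
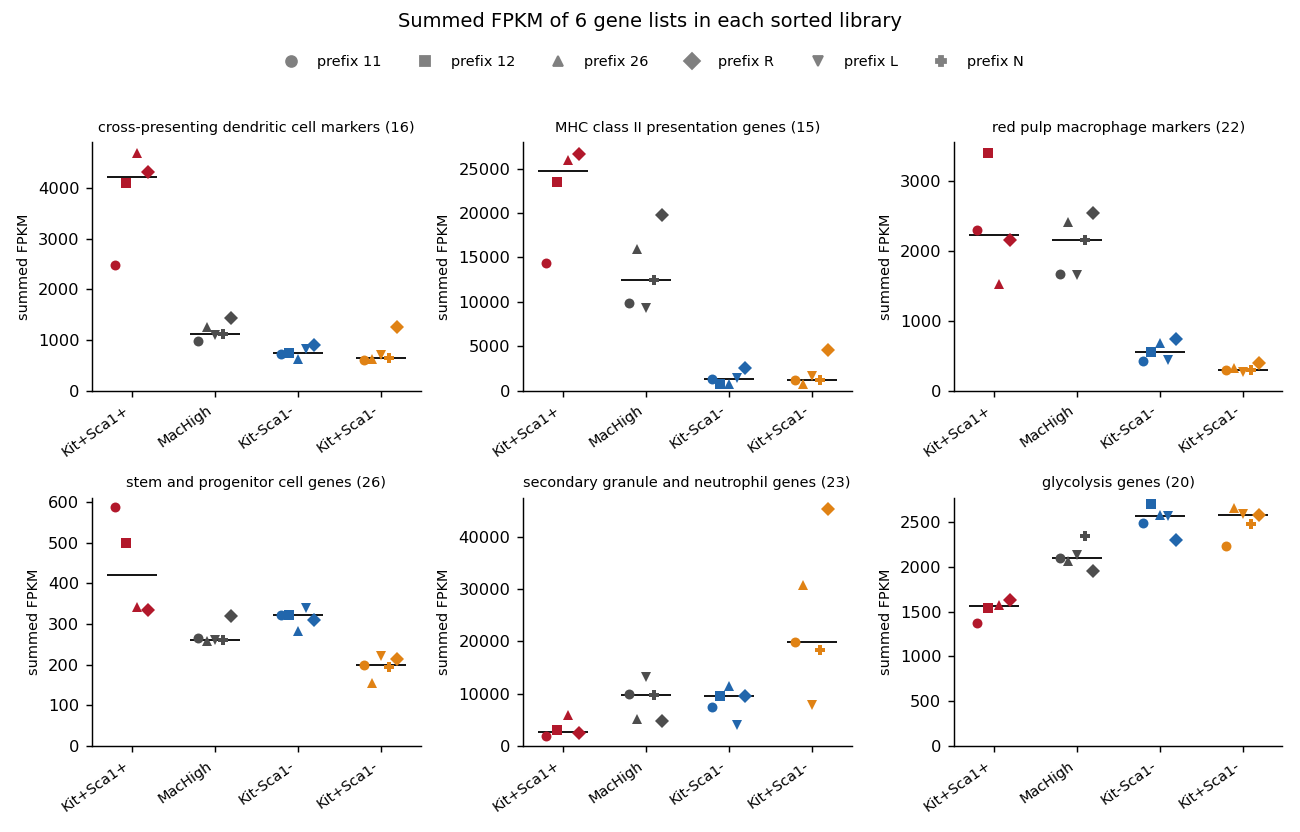
Summed FPKM of the members of 6 gene lists in each of the 19 sorted libraries, with the group median as a line. Members missing in a group are left out. The Kit+Sca1+ libraries lie above all others for the type 1 dendritic cell markers and below all others for glycolysis genes, and they overlap with MacHigh for MHC class II and red pulp macrophage genes.

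Markers of lymphoid and other blood cells gave smaller or mixed differences. For scale, 20.5% of all tested genes were called in each direction and 4.99% lay above all other libraries. Of 15 NK cell markers 8 were called higher and none lower, with a median of 0.88 and 1 above all other libraries, Klrk1, the activating receptor NKG2D, at 13.6, 15.9, 11.7 and 12.2 FPKM against at most 7.68. Prf1, which encodes perforin, had 5.28, 13.2, 12.6 and 2.62 FPKM in Kit+Sca1+ libraries, against 0.0315, 0.236, 0.0596, 0.196 and 0.252 in MacHigh and at most 13.5 in Kit-Sca1- and 2.17 in Kit+Sca1- libraries, and overlapped with Kit-Sca1- libraries. The most abundant NK markers in Kit+Sca1+ cells, Nkg7, Ccl5 and Gzma, each had a higher mean in 1 other group. Nkg7 was called higher, but differed by -1.35 from Kit+Sca1- cells. Ccl5 and Gzma were not called (limma adjusted p = 0.395 and 0.116) and differed by -2.15 and -1.84 from Kit-Sca1- cells. The summed NK markers were 163, 206, 323 and 316 FPKM in Kit+Sca1+ libraries, against 43.4 to 74.5 in MacHigh, 129 to 439.6 in Kit-Sca1- and 281 to 529 in Kit+Sca1- libraries. Of 11 T cell markers 6 were called higher and 2 lower, the median was 0.68, and 2 lay above all other libraries, counts that were again 6, 2 and 2 without replicate 5 of Kit+Sca1-. The T cell sums were 47.1, 67.1, 71.6 and 47.2 FPKM, against 14.0 to 14.8 in MacHigh, 30.0 to 39.9 in Kit-Sca1- and 12.4 to 36.1 in Kit+Sca1- libraries. Lck, a kinase of T and NK cells, had 8.85, 7.80, 4.67 and 2.64 FPKM, which overlapped with the 2.81 to 8.52 of Kit-Sca1- libraries. Of 6 B cell markers 3 were called higher, the median was 0.23, and Cd79a, Pax5 and Ebf1, which define B cells, were listed at 0.001 in each Kit+Sca1+ library. Since genes that every cell uses, such as Rps15 and Polr2e, are listed at 0.001 throughout Kit+Sca1- libraries, that value does not show that a gene was absent. Fcrla, an Fc receptor-like protein of B cells, was the 1 member above all other libraries, with 7.80, 12.4, 13.5 and 11.9 FPKM against at most 2.65. The B cell sums were 47.1, 55.0, 43.4 and 49.5 FPKM, against 54.4 to 108 in MacHigh, 28.5 to 34.4 in Kit-Sca1- and 25.7 to 35.6 in Kit+Sca1- libraries.

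Of 13 erythroid markers 5 were called higher and none lower, with a median of 0.34. The share over all tested genes, also for the lists that follow, was 20.5% in each direction. Hbb-b1, a beta globin gene, had 47.5, 50.0, 36.8 and 15.1 FPKM in Kit+Sca1+ libraries, against 0.966 to 28.6 in MacHigh, 0.000711 to 7.56 in Kit-Sca1- and 0.623 to 10.9 in Kit+Sca1- libraries. The globin genes have near-identical copies between which reads may be split, and Hba-a1 was no longer called without replicate 2 of Kit+Sca1+ (log2 difference 1.39, limma adjusted p = 0.117). Of 8 megakaryocyte markers 2 were called higher and 1 lower (median 0.10), and of 4 plasma cell markers none higher and 1 lower (median -0.18). Of 7 mast cell and basophil markers none were called higher and 4 lower (median -1.18), among them Mcpt8, a basophil protease, with 20.7, 16.1, 6.74 and 6.71 FPKM in Kit+Sca1+ libraries, against 17.9 to 35.2 in MacHigh, 32.4 to 88.8 in Kit-Sca1- and 4.79 to 26.1 in Kit+Sca1- libraries. Mcpt8 was no longer called without replicate 3 (limma adjusted p = 0.063) or 4 (0.0646) of Kit+Sca1+, without the Kit-Sca1- group (0.193) or with the 15 other libraries pooled into 1 group (0.135). Of 8 eosinophil markers 1 was called higher, Ccr3, and 1 lower, Alox15 (median 0.23). Of 4 tested endothelial markers 3 were called higher and 1 lower (median 0.49), while Kdr and Cdh5 averaged 0.0838 and 0.443 FPKM. Stab2, a scavenger receptor of sinusoidal endothelium, had 2.37, 6.16, 2.95 and 2.27 FPKM against at most 0.444. The sums in Kit+Sca1+ libraries, over tested and untested members, were 164, 163, 120.3 and 76.5 FPKM for erythroid, 46.2, 41.0, 46.2 and 55.7 for mast cell and basophil and 48.7, 55.3, 31.1 and 28.8 for endothelial and stromal markers. In the other libraries the erythroid sums were 21.2 to 146 in MacHigh, 36.2 to 84.6 in Kit-Sca1- and 56.0 to 114 in Kit+Sca1- libraries, so that replicates 1 and 2 of Kit+Sca1+ exceeded all of them. The mast cell and basophil sums were 60.8 to 84.1 in MacHigh, 142 to 223 in Kit-Sca1- and 71.8 to 122 in Kit+Sca1- libraries and the endothelial and stromal sums 23.6 to 35.6 in MacHigh, 32.1 to 45.7 in Kit-Sca1- and 12.4 to 21.3 in Kit+Sca1- libraries. Sums of 64.5, 49.7, 16.3 and 33.3 FPKM were found for megakaryocyte and platelet markers, against 47.6 to 98.6 in MacHigh, 15.6 to 52.1 in Kit-Sca1- and 10.4 to 18.6 in Kit+Sca1- libraries, and of 90.5, 116, 83.6 and 102 for eosinophil markers, against 59.0 to 149 in MacHigh, 17.3 to 52.0 in Kit-Sca1- and 61.5 to 136 in Kit+Sca1- libraries. Those of plasma cell markers were 88.6, 102, 123 and 131, against 139.8 to 158 in MacHigh, 86.5 to 131 in Kit-Sca1- and 148 to 191 in Kit+Sca1- libraries. The part of any of these cells in the results was not tested.

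**Figure D5:**
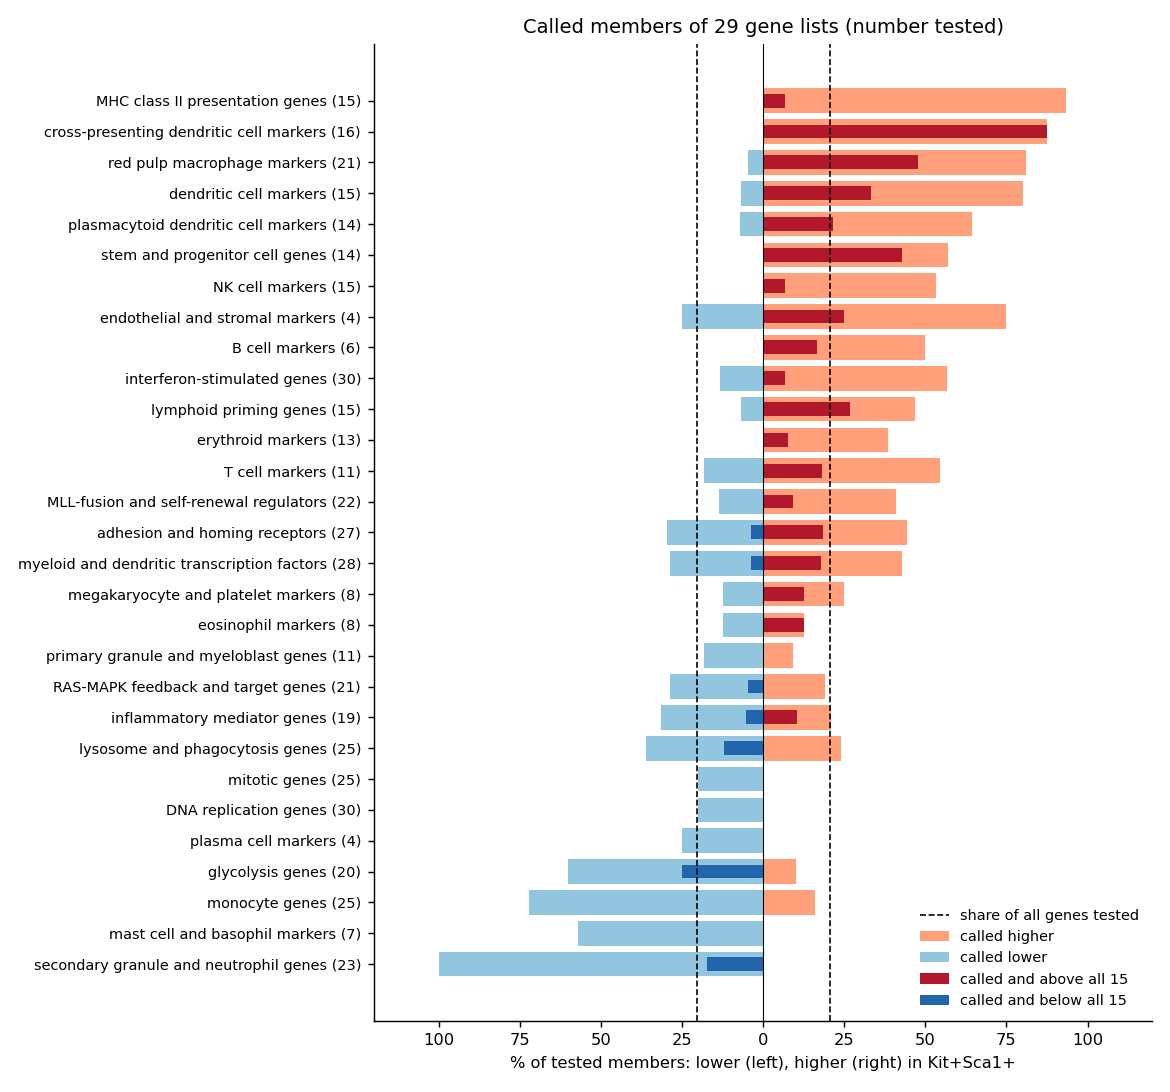
For each of the 29 gene lists, the percentage of tested members called higher and called lower in Kit+Sca1+ cells, with the dashed line at the 20.5% of all tested genes called in either direction. Type 1 dendritic cell, MHC class II and red pulp macrophage lists have the largest shares called higher, and all 23 tested neutrophil genes were called lower.

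Some genes of normal stem and progenitor cells were higher in Kit+Sca1+ cells. Of 26 listed genes, 14 reached the filter, 8 were called higher and none lower, and 6 lay above all 15 other libraries, with a median of 1.20. Of all tested genes 20.5% were called higher and 4.99% lay above all others. Without replicate 5 of Kit+Sca1- the counts were 9, 0 and 6. Gpr56, an adhesion receptor of blood stem cells, had 86.7, 58.3, 25.8 and 21.2 FPKM in the Kit+Sca1+ libraries, against 2.69, 1.10, 1.15, 3.42 and 1.16 in MacHigh, 10.8, 8.91, 5.11, 6.20 and 4.54 in Kit-Sca1- and 11.2, 3.58, 14.5, 12.0 and 6.52 in Kit+Sca1- libraries. Every Kit+Sca1+ library lay above the rest, and the log2 difference was 2.83 ± 0.34 SE (limma adjusted p = 2.28e-06). Angpt1, the ligand of the receptor Tie2, had 29.4, 18.6, 10.6 and 7.27 FPKM in the Kit+Sca1+ libraries, against 0.66, 0.211, 0.16, 0.657 and 0.169 in MacHigh, 1.85, 1.07, 0.64, 1.29 and 0.695 in Kit-Sca1- and 2.17, 0.611, 2.99, 2.59 and 1.94 in Kit+Sca1- libraries. Replicates 1 and 2 had the higher values, and none of the 15 others reached the lowest of the 4 (log2 difference 2.94 ± 0.26 SE, limma adjusted p = 5.97e-08).

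Egfl7, a secreted factor, had 74.9, 55.3, 27.4 and 25.8 FPKM in Kit+Sca1+ libraries, against 1.11 to 3.78 in MacHigh, 3.15 to 10.3 in Kit-Sca1- and 7.45 to 13.3 in Kit+Sca1- libraries. Spns2, a transporter of sphingosine-1-phosphate, had 30.8, 21.2, 8.54 and 7.46 FPKM against at most 3.48. Procr, the protein C receptor of long-lived stem cells, had 7.13, 15.6, 16.2 and 15.4 FPKM against at most 6.14, and Cd27, a receptor of the TNF family, 23.0, 18.7, 5.94 and 5.99 FPKM against at most 2.86. All 4 genes were thus above every other library. Other genes of stem cells were not. Cd34 had 43.3, 39.9, 21.2 and 19.6 FPKM in Kit+Sca1+ libraries and 50.3 to 88.1 in Kit-Sca1- libraries, and Erg, an Ets factor, 23.2, 16.8, 15.6 and 12.4 FPKM against 26.1 to 43.4 in Kit+Sca1- libraries. The 12 below the filter included Slamf1, Hlf, Mycn and Fgd5, and Hoxb5 was listed at 0.001 in all 4 libraries. The summed FPKM of the list was 589, 499.6, 341 and 334 in replicates 1 to 4, against 259 to 319 in MacHigh, 282 to 339 in Kit-Sca1- and 154 to 221 in Kit+Sca1- libraries. Replicates 1 and 2 led in this sum, while replicate 4 overlapped with Kit-Sca1- libraries and replicate 3 lay just above them. Replicate 1, the lowest in dendritic cell markers, was thus the highest here.

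Among 22 tested regulators tied to MLL fusions and self-renewal, 9 were called higher and 3 lower, against 20.5% of all genes in each direction, with a median of 0.36. Sox4 and Id2 lay above all other libraries, as did 4.99% of all genes. Against MacHigh alone Id2 was not called (log2 difference 0.78, limma adjusted p = 0.051). Sox4, an HMG-box factor of progenitors and leukaemias, had 24.4, 23.1, 11.3 and 8.10 FPKM in the Kit+Sca1+ libraries, against 0.655, 0.41, 0.293, 0.44 and 0.239 in MacHigh, 3.65, 1.90, 1.47, 2.92 and 1.82 in Kit-Sca1- and 2.78, 1.86, 3.65, 2.70 and 2.98 in Kit+Sca1- libraries, with a log2 difference of 2.65 ± 0.22 SE (limma adjusted p = 1.86e-08). MacHigh cells had the least and the Kit+Sca1+ libraries the most, without overlap. The best-known targets of the fusion differed less. Hoxa9 had 8.94, 8.69, 2.65 and 6.21 FPKM in Kit+Sca1+ libraries, against 2.84 to 5.15 in MacHigh, 2.92 to 7.35 in Kit-Sca1- and 1.17 to 4.17 in Kit+Sca1- libraries, and did not pass the test (0.49, limma adjusted p = 0.134). Meis1, the cofactor of Hoxa9, had 8.48, 6.18, 6.49 and 4.26 FPKM, which overlapped with the 6.15 to 9.12 of MacHigh and the 4.84 to 7.02 of Kit-Sca1- libraries, and was called higher by 0.39. Hoxa5 and Hoxa10 were called higher by 0.62 and 0.56. Myb, a factor that MLL-fusion leukaemias depend on, had 91.7, 66.3, 91.4 and 124 FPKM, against 13.5 to 29.9 in MacHigh and 128 to 235 in Kit+Sca1- libraries, and lay between them. Mecom was listed at 0.001 in all 4 Kit+Sca1+ libraries.

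Genes of lymphoid priming were called higher in 7 of 15 cases and lower in 1, against 20.5% of all genes in each direction. Their median was 0.54, and 4 lay above all other libraries, against 4.99% of all genes. Flt3, the receptor of a growth factor for multipotent progenitors and dendritic cells, had 131, 134, 128 and 113 FPKM in the Kit+Sca1+ libraries, against 34.8, 14.8, 16.0, 22.2 and 23.3 in MacHigh, 26.1, 9.48, 3.11, 10.5 and 12.2 in Kit-Sca1- and 10.3, 3.10, 8.15, 8.81 and 16.1 in Kit+Sca1- libraries. The lowest Kit+Sca1+ library exceeded the highest other library, and the log2 difference was 3.26 ± 0.35 SE (limma adjusted p = 5.48e-07). Flt3 is on the dendritic cell list too. Tcf7, an effector of Wnt signalling in T cells and progenitors, had 17.6, 13.1, 5.52 and 4.07 FPKM against at most 3.96, and Ccr9, the gut and thymus homing receptor, 3.66, 3.31, 2.82 and 2.26 FPKM against at most 0.335. Bcl11a, a zinc finger factor of B cells and dendritic cells, had 27.6, 18.4, 22.3 and 20.7 FPKM, against 7.20 to 11.3 in MacHigh, 2.67 to 4.62 in Kit-Sca1- and 10.8 to 15.5 in Kit+Sca1- libraries. Rag1, Rag2 and Dntt, which recombine antigen receptor genes, were below the filter. Notch1 was called lower, with 14.7, 10.7, 13.1 and 9.73 FPKM, against 15.8 to 22.3 in MacHigh, 17.2 to 26.9 in Kit-Sca1- and 13.8 to 26.8 in Kit+Sca1- libraries.

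Adhesion and homing receptors were called in both directions. Over all tested genes 20.5% were called in each direction, 4.99% lay above and 3.2% below all other libraries. Of the 27 genes here, 12 were called higher and 8 lower, with 5 above and 1 below all other libraries and a median of 0.30. The 5 were Vcam1, Itgae, Cadm1, Itgad and Xcr1, of which each is also on a dendritic cell or macrophage list. The 1 below was Itgam, whose protein separates MacHigh from MacLow cells in the sort. Kit-Sca1- and Kit+Sca1- cells were gated MacLow as well, and the differences to them were -2.1 and -2.03. Cxcr4, the marrow retention receptor, had 82.1, 88.1, 80.1 and 76.0 FPKM, against 60.7 to 115 in MacHigh, 126 to 239 in Kit-Sca1- and 127 to 245 in Kit+Sca1- libraries, with a difference of -0.75 and values within the MacHigh range. Itga4, the partner of Vcam1, was called higher by 0.75.

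Of 30 interferon-stimulated genes 17 were called higher and 4 lower, against 20.5% of all genes in each direction, with a median of 0.47. The 2 above all other libraries, against 4.99% of all genes, were Cxcl9 and Gbp3. Cxcl9, a chemokine for T cells, had 29.5, 50.8, 37.2 and 38.7 FPKM in the Kit+Sca1+ libraries, against 1.36, 3.78, 1.27, 3.36 and 1.63 in MacHigh, 0.386, 0.277, 0.0779, 0.493 and 0.326 in Kit-Sca1- and 0.472, 0.486, 1.60, 1.54 and 1.53 in Kit+Sca1- libraries. Replicate 2 was highest, and the log2 difference was 4.28 ± 0.20 SE (limma adjusted p = 2.66e-11). Gbp3 had 22.2, 23.6, 23.4 and 22.8 FPKM against at most 19.7, and like Gbp1 belongs to a family of near-identical genes. The other 15 called higher did not lie above all other libraries. Irf7, which amplifies the type I interferon response, had 40.3, 97.9, 85.8 and 65.9 FPKM in Kit+Sca1+ libraries, against an overlapping 28.0 to 54.8 in MacHigh libraries. The 4 called lower were Oas2, Oas3, Oasl2 and Ddx58, sensors or effectors against viral RNA. Of 19 inflammatory mediators 4 were called higher and 6 lower, with a median of -0.17. The share of mediators called higher was near the 20.5% of all genes. Il18, a cytokine that acts on NK and T cells, had 24.7, 42.1, 23.7 and 28.9 FPKM, against 10.8 to 16.1 in MacHigh, 1.49 to 5.14 in Kit-Sca1- and 0.488 to 2.74 in Kit+Sca1- libraries, and Il1a 4.95, 4.37, 2.34 and 2.21 FPKM against at most 0.655. Both lay above all other libraries. Il1rn, the antagonist of the interleukin 1 receptor, lay below them with 0.535, 0.679, 1.46 and 0.988 FPKM, against 7.15 to 16.7 in MacHigh, 5.68 to 22.3 in Kit-Sca1- and 2.20 to 10.7 in Kit+Sca1- libraries (log2 difference -2.31 ± 0.30 SE, limma adjusted p = 5.85e-06).

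Genes of neutrophils and monocytes were among those low in Kit+Sca1+ cells. Of the 366 genes below all other libraries, 16 (4.37%) were on any list, and all 16 were on pathway lists. Here too the share of all tested genes on the lists was not counted. On the list of secondary granule and neutrophil genes, 4 members were missing in a group and were not tested. All 23 tested genes of secondary granules and neutrophils were called lower, against 20.5% of all genes, with a median of -2.36. Of these 13 were called lower against each of the 3 groups and 4 lay below all 15 other libraries, beside 5.44% and 3.2% of all genes. Without replicate 5 of Kit+Sca1- the numbers called and below all others were 22 and 4. Cxcr2, the receptor that draws neutrophils to chemokines (chr1:74153994-74161246), had 3.14, 3.29, 4.96 and 2.49 FPKM in the Kit+Sca1+ libraries, against 18.1, 20.8, 24.2, 21.9 and 15.9 in MacHigh, 53.2, 58.3, 71.4, 25.2 and 42.2 in Kit-Sca1- and 19.6, 21.4, 7.92, 18.5 and 33.0 in Kit+Sca1- libraries. The highest Kit+Sca1+ library, replicate 3, was below each of the others, and the log2 difference was -2.62 ± 0.26 SE (limma adjusted p = 1.99e-07). Stfa3, a cysteine protease inhibitor, had 0.941, 1.17, 0.001 and 0.001 FPKM in the Kit+Sca1+ libraries, against 133, 91.2, 53.6, 185 and 62.7 in MacHigh, 36.4, 76.9, 17.6, 8.48 and 17.8 in Kit-Sca1- and 9.60, 2.68, 1.36, 26.1 and 7.39 in Kit+Sca1- libraries, with a difference of -4.18 ± 0.53 SE. It was listed at 0.001 in replicates 3 and 4. It is one of a cluster of near-identical stefin genes, of which Stfa1, Stfa2 and Stfa2l1 differed by -2.36, -3.24 and -3.46, so reads may be split between them.

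Trem1, which amplifies inflammatory signals, had 4.24, 3.83, 4.41 and 3.77 FPKM in Kit+Sca1+ libraries, against 25.4 to 46.8 in MacHigh, 14.5 to 28.7 in Kit-Sca1- and 7.74 to 25.5 in Kit+Sca1- libraries. The gene listed as 1810033B17Rik, a synonym of Mcemp1 in RefSeq, had 21.7, 23.8, 45.4 and 28.4 FPKM against at least 87.1 in each other library. Among the granule proteins, Ltf, lactoferrin, had 115, 281, 689.5 and 107 FPKM in Kit+Sca1+ libraries, against 659 to 2085 in MacHigh, 609 to 2248 in Kit-Sca1- and 701 to 6181 in Kit+Sca1- libraries, where replicate 3 overlapped with MacHigh and Kit-Sca1- libraries. Retnlg, a resistin-like protein, had 15.3, 23.8, 15.4 and 9.55 FPKM, against 296 to 399 in MacHigh, 730.1 to 1928 in Kit-Sca1- and 21.2 to 238 in Kit+Sca1- libraries, where replicate 2 overlapped with Kit+Sca1- libraries. Summed over the 23 tested neutrophil genes, the FPKM was 1901, 2999, 5981 and 2513 in Kit+Sca1+ libraries. The sums were 4789 to 13110 in MacHigh, 4071 to 11450 in Kit-Sca1- and 7875 to 45230 in Kit+Sca1- libraries.

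Among the other genes with the largest decreases, Ifitm6, a member of the interferon-induced transmembrane family, had 46.9, 54.8, 65.0 and 27.7 FPKM in the Kit+Sca1+ libraries, against 702, 433, 579.9, 729 and 445 in MacHigh, 533, 534, 525, 227 and 543 in Kit-Sca1- and 461, 328, 84.5, 559 and 969.5 in Kit+Sca1- libraries. The 4 Kit+Sca1+ libraries were below all others (log2 difference -3.27 ± 0.41 SE, limma adjusted p = 3.35e-06). Its promoter window is shown beside that of Cd8a since it holds the same composite motif while the gene was called lower. It is given from RefSeq, GRCm38.p6, chr7:141016843-141017142, minus strand, with the matches in capitals, 1 on each strand.
Ifitm6 promoter: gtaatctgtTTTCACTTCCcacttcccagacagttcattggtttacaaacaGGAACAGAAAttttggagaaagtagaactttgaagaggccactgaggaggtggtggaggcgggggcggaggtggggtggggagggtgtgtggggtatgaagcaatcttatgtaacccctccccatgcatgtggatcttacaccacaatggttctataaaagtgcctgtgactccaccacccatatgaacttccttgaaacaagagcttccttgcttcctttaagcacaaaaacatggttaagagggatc
The 2 other motifs searched were counted in the same 300-base windows on both strands. The AP-1 letters TGANTCA were found for 39 of the 449 genes above all other libraries (8.69%), 31 of the 302 below (10.3%) and 6.32% of tested genes. The E-box CACGTG was found for 36 (8.02%), 43 (14.2%) and 11.9%. Matches of different motifs may overlap within a window.

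Slfn4, a schlafen gene induced in myeloid cells, had 5.75, 9.51, 17.1 and 12.6 FPKM in Kit+Sca1+ libraries, against 57.9 to 105 in MacHigh, 94.4 to 235 in Kit-Sca1- and 21.5 to 135 in Kit+Sca1- libraries. Ceacam10, an adhesion-related glycoprotein, had 1.12, 2.45, 2.05 and 0.418 FPKM against at least 3.61 elsewhere, Hal, the histidine ammonia lyase, 1.16, 1.72, 2.30 and 2.22 against at least 3.98, and Tmem71, a membrane protein, 2.28, 1.44, 1.51 and 1.52 against at least 2.34. Each of these 4 genes was thus below all other libraries. Of the 6 genes chosen for their distance from the nearest group, Slpi, an inhibitor of neutrophil elastase, was the most abundant, with 70.8, 88.9, 125 and 135 FPKM in the Kit+Sca1+ libraries, against 302, 362, 356, 317 and 285 in MacHigh, 630.4, 778, 662, 594 and 605 in Kit-Sca1- and 338, 369.6, 431, 417 and 446 in Kit+Sca1- libraries. Its log2 difference was -2.10 ± 0.13 SE (limma adjusted p = 6.22e-10). Alox5, the enzyme that starts leukotriene synthesis, had 9.11, 14.2, 26.3 and 11.7 FPKM, against 58.8 to 90.9 in MacHigh, 29.2 to 65.6 in Kit-Sca1- and 39.7 to 135 in Kit+Sca1- libraries. Pi16, a peptidase inhibitor, Glipr2 and Gas7, a gene of cytoskeletal remodelling, differed by -2.21, -1.99 and -2.14. Adam15, a membrane metalloprotease, had 9.80, 14.0, 18.3 and 22.2 FPKM in Kit+Sca1+ libraries, against 119 to 161 in MacHigh, 61.5 to 110.0 in Kit-Sca1- and 27.2 to 43.0 in Kit+Sca1- libraries, and lay below all of them.

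Of 25 tested monocyte genes 18 were called lower and 4 higher, against 20.5% of all genes in each direction. Their median was -1.35, and none lay outside all other libraries. Fn1, fibronectin, had 5.08, 3.36, 1.49 and 1.98 FPKM in Kit+Sca1+ libraries, against 149 to 386 in MacHigh, 51.7 to 100.3 in Kit-Sca1- and 0.899 to 4.36 in Kit+Sca1- libraries, and Ccr2, the receptor for monocyte egress, 15.4, 20.0, 23.5 and 17.9 FPKM, against 179 to 250.3 in MacHigh, 80.7 to 108 in Kit-Sca1- and 10.6 to 17.4 in Kit+Sca1- libraries. For both genes the Kit+Sca1+ values overlapped with those of Kit+Sca1- cells. Those called higher included Irf5, Ctss and Fcgr1, which macrophages and dendritic cells use too. Irf5, a factor of inflammatory macrophages, had 158, 215, 181 and 214 FPKM in Kit+Sca1+ libraries, against 241 to 313 in MacHigh, 103 to 162 in Kit-Sca1- and 9.68 to 50.5 in Kit+Sca1- libraries. Lyz2 and Psap are listed at 0.001 in all MacHigh libraries and have no fold against that group. Lyz2 had 338, 733, 1224 and 862 FPKM in Kit+Sca1+ libraries, against 1703 to 5938 in Kit-Sca1- and 1307 to 7396 in Kit+Sca1- libraries. Psap, the precursor of lysosomal saposins, had 2547, 4205, 4231 and 4428 FPKM, against 707 to 1730.0 and 288 to 810.3 FPKM in those groups.

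Primary granule genes, made at the promyelocyte stage, did not follow the neutrophil genes. Of 11 tested genes 1 was called higher and 2 lower, with a median of -0.16. The share called lower was near the 20.5% of all genes. Ctsg, cathepsin G, had 437, 343, 609.5 and 1028 FPKM in Kit+Sca1+ libraries, against 60.3 to 129 in MacHigh, 475 to 748 in Kit-Sca1- and 829 to 2483 in Kit+Sca1- libraries, a middle level with replicates 3 and 4 above replicates 1 and 2. Mpo, Elane, Prtn3 and Prss57 stood at 0.001 in each Kit+Sca1- library and were not tested. Mpo, myeloperoxidase, had 1255, 943, 2462 and 3927 FPKM in Kit+Sca1+ libraries, against 64.4 to 148 in MacHigh and 212 to 439.6 in Kit-Sca1- libraries. Elane, neutrophil elastase, had 897, 716, 2356 and 3769 FPKM, against 90.2 to 256 in MacHigh and 265 to 417 in Kit-Sca1- libraries. For both, every Kit+Sca1+ library was above the 10 libraries with a value. The alarmin gene S100a8, also listed at 0.001 in Kit+Sca1-, had 6286, 7786, 19400 and 10739 FPKM, against 9776 to 38602 in MacHigh and 10011 to 23159 in Kit-Sca1- libraries.

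Feedback and target genes of RAS-MAPK signalling, the pathway that the NRAS mutation activates in every group, were mixed. Of 21 genes 4 were called higher and 6 lower, with a median of 0.17, against a background of 20.5% in each direction. The share called higher was near that of all genes. Over all tested genes 4.99% lay above and 3.2% below all other libraries. Plaur, the urokinase receptor (chr7:24460937-24475970), was the 1 gene outside all other libraries, with 12.3, 10.8, 18.2 and 14.6 FPKM in the Kit+Sca1+ libraries, against 186, 138, 119.6, 164 and 137 in MacHigh, 102, 88.9, 119, 67.8 and 125 in Kit-Sca1- and 64.8, 80.1, 29.6, 52.6 and 123 in Kit+Sca1- libraries. The log2 difference was -2.74 ± 0.24 SE (limma adjusted p = 4.72e-08). Fosl2, an AP-1 factor, had 3.88, 3.62, 5.44 and 3.16 FPKM, against 25.5 to 33.7 in MacHigh, 18.5 to 38.5 in Kit-Sca1- and 5.35 to 15.3 in Kit+Sca1- libraries, and replicate 3 overlapped with Kit+Sca1- libraries. Dusp6, the feedback phosphatase of ERK, had 44.5, 50.6, 46.4 and 46.3 FPKM, against 137 to 256 in MacHigh, 48.4 to 106 in Kit-Sca1- and 28.6 to 43.2 in Kit+Sca1- libraries, and lay below MacHigh but above Kit+Sca1- libraries. Both were called lower. Dusp2 was called higher, with 48.1, 32.1, 19.4 and 47.6 FPKM in Kit+Sca1+ libraries, against 6.19 to 19.5 in MacHigh, 5.29 to 22.9 in Kit-Sca1- and 4.11 to 12.6 in Kit+Sca1- libraries, while Spry4, Etv4, Etv5 and Egr1 did not pass the test.

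Of 20 glycolysis genes 12 were called lower and 2 higher, with 5 below all other libraries and a median of -0.55. Of all tested genes 20.5% were called in each direction and 3.2% lay below all others. Slc16a3, the lactate exporter MCT4, had 8.47, 10.2, 17.8 and 16.2 FPKM in the Kit+Sca1+ libraries, against 72.6, 63.8, 65.9, 77.7 and 59.8 in MacHigh, 34.5, 43.8, 58.5, 31.8 and 48.1 in Kit-Sca1- and 40.7, 55.4, 32.1, 34.9 and 58.4 in Kit+Sca1- libraries. No other library was as low as the highest Kit+Sca1+ value, and the log2 difference was -1.90 ± 0.18 SE (limma adjusted p = 1.49e-07). Pkm, the pyruvate kinase, had 204, 221, 242 and 237 FPKM in Kit+Sca1+ libraries, against 335 to 511 in MacHigh, 386 to 553 in Kit-Sca1- and 464 to 575 in Kit+Sca1- libraries, and Aldoa, an aldolase, 232, 284, 279 and 305 FPKM, against 456 to 530.0 in MacHigh, 507 to 585 in Kit-Sca1- and 410.2 to 534 in Kit+Sca1- libraries. Hk1, a hexokinase, and Pgk1, which makes ATP in the pathway, were the other members below all libraries. Ldha, lactate dehydrogenase, did not pass the test (-0.12, limma adjusted p = 0.452). Gapdh and Eno1 have many processed pseudogenes and reached at most 25.8 and 12.9 FPKM in the 15 other libraries, so their values are uncertain. The summed FPKM of the list was 1377, 1539, 1575 and 1632 in Kit+Sca1+ libraries, against 1951 to 2343 in MacHigh, 2304 to 2704 in Kit-Sca1- and 2231 to 2660 in Kit+Sca1- libraries, without overlap.

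Of 25 lysosome and phagocytosis genes 6 were called higher and 9 lower, with a median of -0.20 and 3 below all other libraries, against 20.5% of all genes called in each direction and 3.2% below all others. The share called higher was thus near that of all genes. These 3 were Lamp2, Lamp1 and Gla. Lamp1, a main protein of the lysosomal membrane, had 220.5, 225, 175 and 227 FPKM in Kit+Sca1+ libraries, against 449 to 539 in MacHigh, 379 to 421 in Kit-Sca1- and 245 to 316 in Kit+Sca1- libraries, and Lamp2 83.3, 74.0, 88.6 and 84.3 FPKM, against 183 to 204 in MacHigh, 128 to 167 in Kit-Sca1- and 156 to 171 in Kit+Sca1- libraries. Lgmn, the protease legumain, was called higher by 1.77 against the mean of groups, but its 121, 144, 47.9 and 101 FPKM overlapped with the 118 to 191 of MacHigh libraries.

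Of the cell cycle genes, none of 30 DNA replication genes were called higher and 6 lower, with a median of -0.15, and of 25 mitotic genes none higher and 5 lower, with a median of -0.22. Both shares called lower were near the 20.5% of all genes. The summed FPKM of the replication genes was 1507, 1447, 1348 and 1398 in Kit+Sca1+ libraries, against 736 to 1077 in MacHigh, 1633 to 2485 in Kit-Sca1- and 2074 to 2669 in Kit+Sca1- libraries. The Kit+Sca1+ sums thus lay above those of MacHigh and below those of both other groups, without overlap. For the mitotic genes the sums were 1393, 1124, 1150 and 1339, against 738 to 1439 in MacHigh, 1328 to 1730 in Kit-Sca1- and 1734 to 2343 in Kit+Sca1- libraries, and Kit+Sca1+ overlapped with MacHigh and Kit-Sca1- and lay below Kit+Sca1- libraries. Mki67 had 95.9, 75.7, 89.4 and 85.6 FPKM in Kit+Sca1+ libraries, against 68.7 to 131 in MacHigh, 108 to 139.5 in Kit-Sca1- and 140.1 to 254 in Kit+Sca1- libraries, and differed by -0.52 (limma adjusted p = 0.00783). Mcm6, a helicase subunit, had 173, 154, 131 and 129 FPKM, against 62.2 to 88.3 in MacHigh, 158 to 241 in Kit-Sca1- and 208 to 288 in Kit+Sca1- libraries. The Kit+Sca1+ values of Mcm6 lay between those of MacHigh and those of Kit+Sca1- libraries and overlapped with those of Kit-Sca1- libraries.

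The 4 Kit+Sca1+ libraries differed among themselves in the genes that set them apart. Over the 570 genes above all other libraries, the median range among the 4 was 0.57 on the log2 scale, and 128 genes (22.5%) ranged by 1 or more. Replicate 1 was the lowest of the 4 for 275 of them (48.2%) and replicate 2 the highest for 225 (39.5%). Over the 366 genes below all other libraries, the median range was 0.32, and replicate 3 was the highest of the 4, and so nearest to the other groups, for 181 (49.5%). Replicate 3 also had the largest sum of neutrophil genes. Replicates 1 and 2 had the larger values of Angpt1, Vcam1 and of the stem and progenitor sum, and replicates 3 and 4 those of Mpo, Elane and the type 1 dendritic cell sum together with replicate 2. Sample names carry a prefix that recurs across groups. Within the 4 prefixes of the Kit+Sca1+ libraries, the difference to the same-prefix libraries of the other groups was 5.78, 7.30, 5.18 and 5.67 for Vcam1, 4.64, 5.29, 4.77 and 4.50 for Itgae, 3.44, 2.58, 2.79 and 2.31 for Gpr56, -2.75, -3.79, -2.46 and -3.06 for Cxcr2 and -3.03, -2.93, -2.52 and -3.05 for Plaur, in the same direction each time. Among the sorted groups, the prefix of replicate 2 recurs in Kit-Sca1- only, so its difference is to that group. Replicates have no order, and no label distinguishes these libraries beyond their sample names.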

How the data were processed

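RNA of sorted leukaemia cells was sequenced in 19 libraries, and 5 libraries of unsorted cells were not compared. The authors deposited 1 table of FPKM per gene and library, made with TopHat2 2.0.4 and Cuffdiff on the mouse genome mm10, per the submitters' processing notes. The gene annotation, the version of Cuffdiff and any scaling between libraries are not given in the sources used here, and neither are read counts, so depth is unknown; 0 columns were left unmatched. Low FPKM values gave relative depths of 0.802 to 1.98 between the sorted libraries.

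Groups came from the sample titles. Values were analysed as log2(FPKM + 1). Genes with 1 FPKM or more in at least 4 of the 19 libraries were kept. The 37 listed at 0.001 in a whole group while another group had 5 FPKM or more in each library were set aside. A linear model of the 4 sorted groups was fitted with limma 3.58.1 in R 4.3.3, with variances moderated along a mean trend, and the Kit+Sca1+ mean was tested against the mean of the 3 other group means with Benjamini-Hochberg adjustment at 0.05. The fit was tested on simulated data. Exact permutation tests were run for Kit, Ly6a and Itgam. RefSeq genes of GRCm38.p6 were found for 23201 of 23361 rows (99.3%), by symbol or synonym. Python 3.11.15, numpy 2.4.6, pandas 2.3.3 and matplotlib 3.10.9 were used for tables and figures.

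By rule, a set of genes was chosen and followed through the alternatives. It holds the 3 sort markers. It also holds the 12 largest differences in each direction and the 6 farthest from the nearest group. These were taken among genes outside all 15 other libraries, with 5 FPKM or more where they are high. From each of 16 pathway lists came up to 3 members outside all 15 other libraries. The 3 most abundant members of each of 13 cell-type lists complete the set, and many of these are not described above. MicroRNA, snoRNA, predicted and Rik genes were left out of the choice by size. Other list members were named after their values were seen. The comparison, the members and the lists were chosen with earlier results of these data known. Alternatives were another pseudocount, filter and scaling, the sample-name prefix or title number as a block, single libraries or groups left out, and stricter definitions of a called gene.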

Additional observations from a re-analysis of the deposited data

Results flagged for a closer look

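In 13 of 268 sets of values of 1 group (4.85%), the highest or lowest library was set apart by Dixon's test, which chance does for about 1 in 20. Among genes, Dnase1l3 had 6.48 FPKM in replicate 2 of MacHigh, against 1.06 to 2.50 in the other 4, and 2.75 in replicate 4 of Kit-Sca1-, against 0.884 to 1.34. Ifitm6 had 227 FPKM in the same Kit-Sca1- library, against 525 to 543, and Tmem71 had 10.9, against 21.5 to 24.3. Tmem71 also had 2.28 FPKM in replicate 1 of Kit+Sca1+, against 1.44 to 1.52 in the other 3. Ccr3 had 1.12 FPKM in replicate 4 of MacHigh, against 0.490 to 0.674. The other 7 were summed lists. The MLL-fusion regulators summed to 1142 FPKM in replicate 3 of Kit+Sca1+, against 1279 to 1302, and the stem and progenitor genes to 319 in replicate 5 of MacHigh, against 259 to 267. The erythroid markers summed to 146.5 in replicate 4 of MacHigh, against 21.2 to 46.0. The remaining 4 were all in replicate 5 of Kit+Sca1-. There the MHC class II genes summed to 4543, against 709.5 to 1688 in the other 4 libraries, type 1 dendritic cell markers to 1255, against 596 to 695, general dendritic cell markers to 229, against 84.6 to 104.9, and T cell markers to 36.1, against 12.4 to 18.9. Without that library the counts of dendritic cell markers above all others in Kit+Sca1+ were 14 of 16 for the type 1 list and 5 of 15 for the general list, as with it.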

How the results depend on the processing

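Of the 91 tested genes chosen by rule, 17 were called in some of the alternatives and not in others. Among 3267 gene and setting pairs 3180 were unchanged, with 44 losing and 43 gaining a call and none reversing. The counts of called genes (2337 higher, 2338 lower), of genes outside all 15 other libraries (570, 366) and of genes called against each group (812, 622) moved by less than 1.5 times except as follows. With the 15 other libraries pooled into 1 group 1222 and 1013 were called, and with a difference of 1 or more 734 and 361. Outside all others there were 349 higher with a 5 FPKM filter, 1222 and 759 without MacHigh, 923 and 963 without Kit+Sca1-, 559 lower without Kit-Sca1-, and 238 and 28 with a log2 gap of 0.5. Against each group there were 1375 higher with no filter, 483 higher with a 5 FPKM filter, 1542 and 1060 without MacHigh and 1283 and 1290 without Kit+Sca1-. Kit with a pseudocount of 0.1 differed by 2.60 (exact permutation, adjusted p = 0.0557). Leaving out 1 library gave 1921 to 2415 and 1780 to 2472 called, 571 to 770 and 367 to 542 outside all others, and 682 to 831 and 446 to 685 against each group. Other scalings moved the share higher among called genes between 43.1% and 57.5% (49.99% as reported). They also changed which genes lay outside all others. Of the 366 below, 221 stayed with libraries rescaled to the same FPKM sum, 270 with quantile normalization and 271 with median-ratio scaling. From the 570 above, 471, 470 and 568 stayed. The correlation of deviations was over 0.1 in 9 of 10 same-prefix pairs with Kit+Sca1+ (mean 0.25, lowest 0.0513, mean of other pairs -0.0498) and in 5 of 12 same-numbered pairs. Each of those 5 also shared the prefix, and same-numbered pairs of different prefixes reached at most 0.0837. Libraries of the same prefix thus tended to deviate together, and the limma p-values given here do not take this into account. As not every pair passed 0.1 and no label explains the prefix, pairing stayed an alternative. With the prefix as a block 2674 and 2813 were called, and 952 and 866 against each group. A block on the title number gave 2537 and 2539 called. Missing read counts limit what can be said of genes near 1 FPKM.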

Other observations

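In the 5 libraries of unsorted leukaemia cells, which entered no comparison, the medians of the following 9 genes lay below the lowest Kit+Sca1+ library. Vcam1 had a median of 21.6 FPKM, Itgae 2.10, Clec9a 12.8, C1qa 39.4, Gpr56 11.9, Sox4 2.90 and Flt3 19.9. Kit had a median of 10.8 and Ly6a of 1.88 FPKM. For Vcam1 and Itgae these medians were above each of the 15 other sorted libraries, which reached at most 11.6 and 1.88 FPKM. The unsorted medians of 3 genes lay above the highest Kit+Sca1+ library. Cxcr2 had a median of 26.7, Plaur of 91.0 and Slpi of 399 FPKM.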
